A study of Mus musculus with 7 samples.

Results

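The lysosome is the acidic compartment in which cells break down proteins, sugar chains, lipids and engulfed material, and 40 genes for its enzymes and membrane proteins were followed here in mouse spleen cells after transplantation. The genes were taken from a list of known lysosomal products, and that list was chosen with earlier results of these data known. Of the 40, 37 had a probe set assigned to that gene symbol alone, among 12393 genes with such a probe set on the array. Where a gene had several, the probe set with the highest mean over the 7 arrays stood for it. Arsb, Cd63 and Atp6v0d2 were not analysed here. The list held 7 cysteine proteases, 3 other peptidases, 12 glycosidases and sulfatases, 8 proteins of lipid breakdown and transfer, 6 membrane proteins and 4 subunits of the proton pump. Grn was placed with the lipid proteins.

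Acute graft-versus-host disease begins when donor T cells respond to the tissues of an allogeneic host, and ICOS with its ligand ICOSL is one of the costimulatory pairs of such T cells. All recipients were female C57BL/6 mice, 9 to 12 weeks old, that were irradiated with 10.0 Gy and injected intravenously 4 to 6 h later with splenocytes freed of red cells, so no group was without irradiation and transplant. The syngeneic group (1 array) had received B6 splenocytes, and its labels name no antibody. The 3 allogeneic groups (2 arrays each) had received C3H/HeN splenocytes and were given control rat IgG (isotype), anti-ICOSL antibody from day 0, or anti-ICOSL antibody from day 3. For treated mice and their controls the antibody dose was 500 µg at the start and 200 µg on alternate days after that, and the start day of the isotype antibody is not given in the sources used here. Spleen cells were taken on day 4. RNA from several allogeneic mice was combined and then hybridised to 2 arrays, so p-values measure the spread between arrays, which may be technical. The syngeneic value is 1 array with no spread of its own, and donor strain cannot be told apart from the allogeneic response.

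Values are MAS5 signals, a linear brightness per probe set. MAS5 scales each array to a set mean after trimming, and on the 7 arrays the trimmed means lay between 500.18 and 500.19 and the medians between 145.3 and 174.3. The ratio of 3' to 5' Gapdh control probes, a sign of RNA integrity, was 0.957 for the syngeneic RNA and ran from 0.767 to 0.865 for the allogeneic RNA, and its part in the results was not tested. For the beta-actin control probes the same ratio was closer between groups, at 1.028 for the syngeneic RNA and 0.967 to 1.021 for the allogeneic RNA. Changes are differences of log2(signal + 50) with the standard error (SE) of a limma fit over all 7 arrays, so the change of a dim gene is understated. A gene is said to have fallen or risen where its Benjamini-Hochberg adjusted p over all 15372 tested probe sets was under 0.05. Only probe sets with a group mean of 99.7 or more, the 40th percentile of all values, were tested. Of the 37 genes, 36 were tested. Ctsk, a collagen-degrading cathepsin best known from osteoclasts, was below that level, with a signal of 8.73 in the syngeneic group and 10.7 to 86.1 in the allogeneic groups. The gene for the cholesterol exporter Npc1 was tested only because its syngeneic value passed the filter, so it could enter only by differing.

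Lysosomal hydrolases are made in the endoplasmic reticulum, tagged with mannose 6-phosphate and carried to the lysosome, where a proton pump keeps the lumen acidic and membrane proteins shield, transport and signal. Macrophages hold many lysosomes, and those of the splenic red pulp use them to digest aged red cells. Many lysosomal genes carry an E-box-like element near their start, the CLEAR element, which is bound by the transcription factor TFEB and its relatives and lets lysosomal genes be raised together.

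The promoter windows of the genes are described here because the genes can be sorted by whether the letters of that element occur in them. RefSeq windows of 300 bases on GRCm38.p6, 250 before and 50 after the annotated start, were at hand for 35 of the 40 genes as 39 windows. Ctsb, Ctsh, Npc1, Asah1 and Atp6v0d2 had no entry. The core CACGTG reads the same on both strands and was found in 14 of the 39 windows (35.9%), against 7.15% of all 32851 windows. TCACGTG, searched on both strands, was in 13 (33.3%) against 3.77%, and the palindrome TCACGTGA in 7 (17.9%) against 0.974%. The 3 motifs are nested, so each longer match is also counted among the shorter ones. A match is a string of letters and does not show that a factor binds there. The 6 sequences printed before that of Hexa, 5' to 3' along the gene, are those of 6 of the 7 windows with the 8-letter match. Hexa had one of the largest falls and no match. Capitals mark each CACGTG or TCACGTGA.
Cln3, chr7:126583187-126583486, minus strand: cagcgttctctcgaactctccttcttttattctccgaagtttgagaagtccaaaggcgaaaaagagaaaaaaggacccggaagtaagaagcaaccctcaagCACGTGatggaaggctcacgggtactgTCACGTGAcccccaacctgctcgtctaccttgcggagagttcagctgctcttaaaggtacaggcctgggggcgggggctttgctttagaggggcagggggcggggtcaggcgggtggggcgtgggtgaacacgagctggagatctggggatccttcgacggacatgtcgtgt
Ctsa, chr2:164833523-164833822, plus strand: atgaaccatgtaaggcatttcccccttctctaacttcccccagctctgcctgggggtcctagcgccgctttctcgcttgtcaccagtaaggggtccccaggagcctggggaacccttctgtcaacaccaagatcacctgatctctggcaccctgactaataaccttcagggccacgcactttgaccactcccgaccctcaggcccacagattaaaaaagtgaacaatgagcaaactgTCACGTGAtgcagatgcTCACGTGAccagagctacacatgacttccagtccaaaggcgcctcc
Ctsd, chr7:142387778-142388077, minus strand: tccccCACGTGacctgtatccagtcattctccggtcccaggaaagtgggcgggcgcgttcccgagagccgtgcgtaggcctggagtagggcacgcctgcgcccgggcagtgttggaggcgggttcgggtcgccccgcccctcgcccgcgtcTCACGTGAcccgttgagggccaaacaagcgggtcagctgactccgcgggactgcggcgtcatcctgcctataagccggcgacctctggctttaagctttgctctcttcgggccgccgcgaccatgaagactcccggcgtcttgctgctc
Gla, chrX:134600956-134601255, minus strand: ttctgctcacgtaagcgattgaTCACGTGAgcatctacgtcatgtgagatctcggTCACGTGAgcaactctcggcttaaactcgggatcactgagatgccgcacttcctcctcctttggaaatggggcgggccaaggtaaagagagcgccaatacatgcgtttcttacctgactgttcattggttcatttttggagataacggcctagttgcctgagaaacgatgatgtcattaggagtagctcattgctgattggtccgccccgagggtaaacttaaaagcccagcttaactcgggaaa
Mcoln1, chr8:3500269-3500568, plus strand: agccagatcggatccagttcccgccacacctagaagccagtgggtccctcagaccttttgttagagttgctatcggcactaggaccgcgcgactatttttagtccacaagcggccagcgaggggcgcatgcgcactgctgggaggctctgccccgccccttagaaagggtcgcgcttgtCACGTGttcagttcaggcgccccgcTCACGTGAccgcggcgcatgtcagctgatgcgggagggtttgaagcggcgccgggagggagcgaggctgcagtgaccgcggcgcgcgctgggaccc
Atp6v0d1, chr8:105566015-105566314, minus strand: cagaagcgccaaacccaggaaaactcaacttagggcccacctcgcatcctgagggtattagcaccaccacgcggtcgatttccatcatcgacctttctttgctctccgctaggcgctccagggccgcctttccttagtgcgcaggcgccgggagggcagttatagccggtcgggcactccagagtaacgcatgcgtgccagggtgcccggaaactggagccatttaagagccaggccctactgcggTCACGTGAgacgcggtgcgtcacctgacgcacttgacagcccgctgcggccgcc
Hexa, chr9:59539290-59539589, plus strand: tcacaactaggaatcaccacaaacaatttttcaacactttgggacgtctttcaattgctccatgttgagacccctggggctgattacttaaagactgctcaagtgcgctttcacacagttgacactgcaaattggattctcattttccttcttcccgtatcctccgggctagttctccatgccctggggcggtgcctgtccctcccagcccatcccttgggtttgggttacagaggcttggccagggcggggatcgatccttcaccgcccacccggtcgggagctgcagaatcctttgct

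In these windows the Ctsa matches lie within 12 bases of the start on either side, the Atp6v0d1 match lies 3 bases before it, and those of Gla lie 227 and 194 bases before it. Lamp1 held 4 copies of TCACGTG between 61 and 15 bases before its start, the highest number among the 14 genes. Distances are from the base at the start to the first base of the core.

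**Figure D1:**
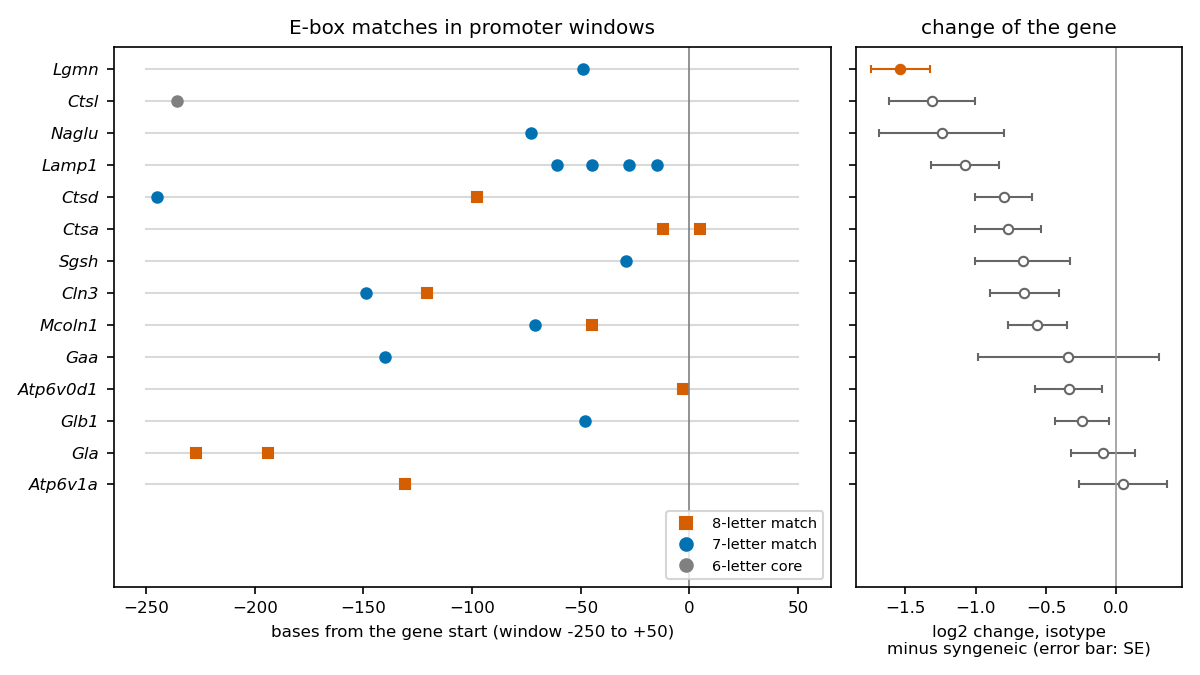
Left, position in bases from the gene start of each CACGTG core in the promoter windows of the 14 genes that hold one, with the longest motif around it (square, TCACGTGA; circle, TCACGTG or the core alone). Right, log2 change of the same gene, isotype minus syngeneic, with SE (filled, adjusted p under 0.05). Lgmn is the single filled point among the 14.

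The comparison of isotype-treated allogeneic with syngeneic spleens asks what the allogeneic transplant changes without ICOSL blockade. The isotype mice were also given rat IgG, and the labels name no antibody for the syngeneic group, so the control antibody, too, cannot be told apart from the allogeneic response. Lysosomal genes were lower in the allogeneic spleens: 12 of 36 fell and 0 rose. Over all probe sets tested, 6.62% passed, 4.12% as falls and 2.49% as rises (4.28% and 2.66% with 1 probe set per gene). The median change was -0.68 on the log2 scale, against -0.01 for all tested probe sets, and single genes ran from -2.24 to 0.14. Of the 36 genes, 34 lay below and 2 above the syngeneic value, against 50.7% and 49.3% of all tested probe sets. The isotype arrays did not overlap the syngeneic array and lay below it for 31 genes (38.8% of all tested probe sets) and above it for 1 (38%). A change of at least 2-fold downwards without overlap was shown by 15 genes, against 7.23% of all, and upwards by 0, against 3.74%. In bulk RNA, fewer cells that express these genes and less RNA per cell cannot be told apart.

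**Figure D2:**
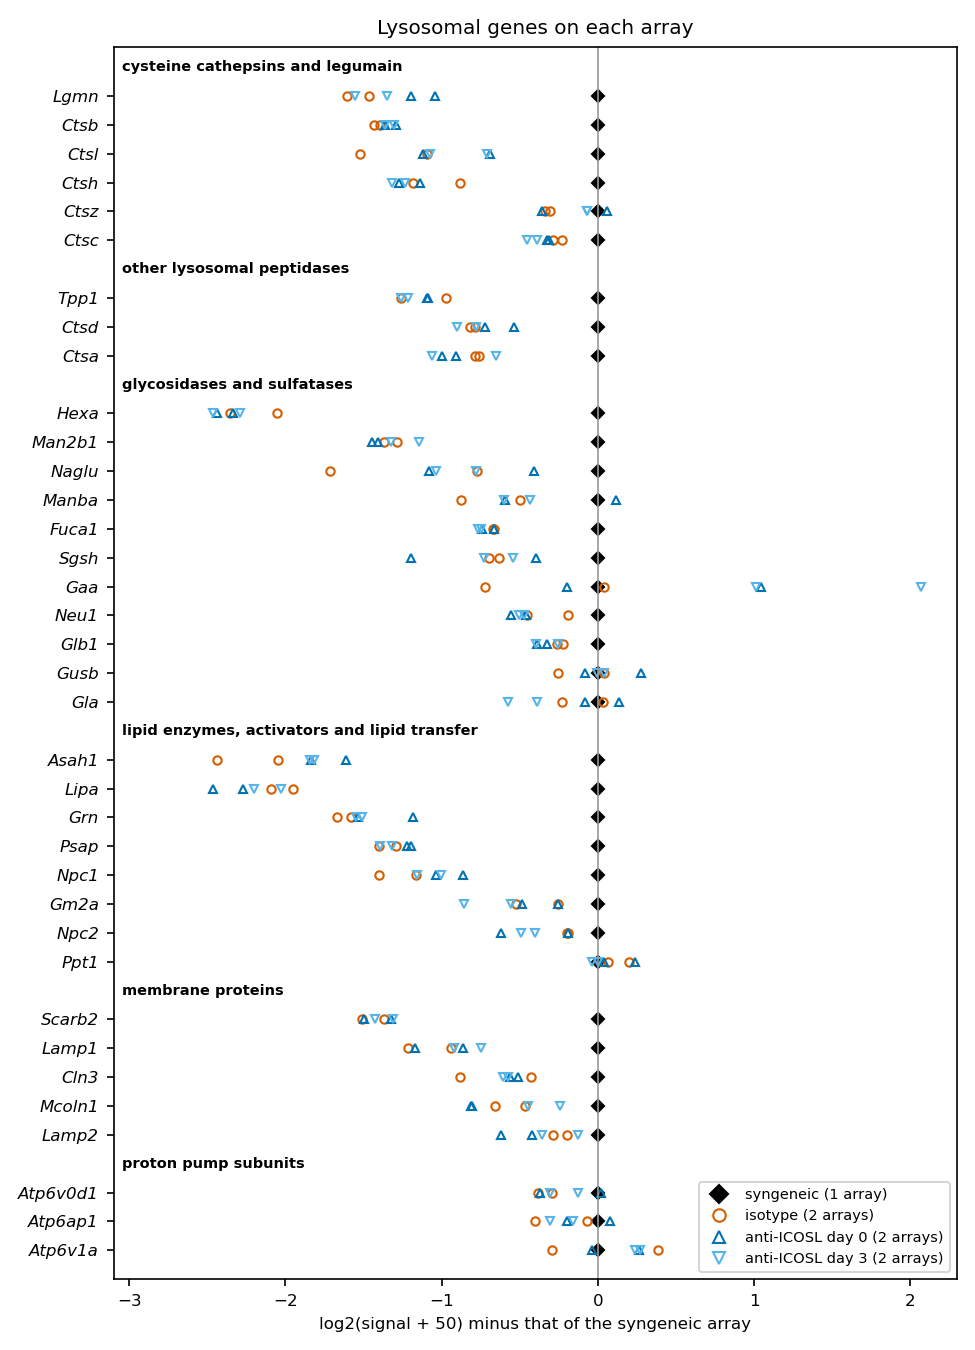
Each point is 1 array and gives the log2(signal + 50) of a lysosomal gene minus that of the syngeneic array, by group and ordered by role. The arrays of the 3 allogeneic groups lie close to each other for most genes, and for Asah1, Hexa and Lipa all 6 lie far to the left of 0; Gaa has the widest scatter.

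By median change, the role of lipid breakdown and transfer stood lowest among the 6 roles: 5 of 8 genes fell (median -1.31). The 5 include Npc1, which could enter only by differing, and Grn, a secreted protein that was placed in this role. The rank without these genes was not examined. Asah1 encodes acid ceramidase, which splits ceramide into sphingosine and a fatty acid. Its signal was 2992 in the syngeneic group, 686 and 512 in isotype, 803 and 946 with antibody from day 0, and 799 and 814 with antibody from day 3. All 6 allogeneic arrays were thus far below the syngeneic one, and isotype was 4.73-fold lower (log2 -2.24 ± 0.24, adjusted p = 0.00598). Lipa encodes the acid lipase that frees cholesterol from its esters. Its signals were 5418 in the syngeneic group, 1361 and 1233 in isotype, 942 and 1082 at day 0, and 1141 and 1289 at day 3. The groups again did not overlap, with a 4.07-fold fall (log2 -2.02 ± 0.21, adjusted p = 0.00537).

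Psap encodes prosaposin, the precursor of the saposins that present sphingolipids to their enzymes. Its signal was 13546 in the syngeneic group, 5098 and 5509 in isotype, 5770 and 5896 at day 0, and 5126 and 5410 at day 3, a fall of 2.54-fold for isotype (log2 -1.35 ± 0.19, adjusted p = 0.0133). Grn encodes progranulin, a secreted protein that is also processed in lysosomes. Its signals were 9890 in the syngeneic group, 3276 and 3079 in isotype, 3375 and 4334 at day 0, and 3347 and 3447 at day 3, and isotype was 3.08-fold lower (log2 -1.62 ± 0.22, adjusted p = 0.0128). For both genes the 6 allogeneic arrays stayed within a narrow range below the syngeneic array. Npc1 had 207 in the syngeneic group, 64.6 and 47.4 in isotype, 75.5 and 91.2 at day 0, and 65.1 and 78.1 at day 3, with a log2 change of -1.28 ± 0.22 (adjusted p = 0.0231).

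The other 3 lipid genes did not pass. Npc2, the soluble partner that hands cholesterol to Npc1, had 14104 in the syngeneic group, 12319 and 12361 in isotype, 12337 and 9182 at day 0, and 10645 and 10020 at day 3. All 6 allogeneic arrays were below the syngeneic one, by little in isotype (log2 -0.19, adjusted p = 0.683). A second Npc2 probe set had a larger isotype change that did not pass either (7486 against 4994 and 4410, log2 -0.67, adjusted p = 0.113). Gm2a, the activator of ganglioside breakdown, had 2325 in the syngeneic group and 1264 to 1942 on the allogeneic arrays (isotype change -0.39, adjusted p = 0.405). Ppt1, which removes fatty acids from proteins, had 577 against 560 to 689 (isotype change 0.14, adjusted p = 0.746). A second Ppt1 probe set had the opposite sign, at 575 against 369 to 531 (isotype change -0.48, adjusted p = 0.294). Of the lipid genes, Psap lost its call without isotype array 1 (adjusted p = 0.0530) and Grn without isotype array 2 (adjusted p = 0.0550). Npc1 lost it without either isotype array (adjusted p = 0.0532 and 0.0797) and also without either day 0 array or without day 3 array 1.

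Among the glycosidases and sulfatases, which strip sugars and sulfate groups from glycans, 2 of 11 tested genes fell and 0 rose (median -0.67). Hexa encodes the alpha subunit of beta-hexosaminidase, the enzyme that degrades GM2 ganglioside. It had a signal of 3816 in the syngeneic group, 883 and 706 in isotype, 715 and 662 at day 0, and 741 and 651 at day 3. No allogeneic array came near the syngeneic value, and isotype was 4.60-fold lower (log2 -2.20 ± 0.22, adjusted p = 0.00492). Man2b1, the lysosomal alpha-mannosidase, had 5332 in the syngeneic group, 2033 and 2155 in isotype, 1924 and 1982 at day 0, and 2101 and 2388 at day 3, a 2.51-fold fall (log2 -1.33 ± 0.20, adjusted p = 0.0156). Its call was lost without isotype array 1 (adjusted p = 0.0571) or 2 (0.0549).

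The spread among the remaining 9 glycosidases was wide. Naglu, which acts on heparan sulfate, had 263 in the syngeneic group, 133 and 45.6 in isotype, 186 and 98.1 at day 0, and 132 and 103 at day 3. All allogeneic arrays were below the syngeneic one, but the isotype arrays lay far apart and the change of -1.24 ± 0.45 did not pass (adjusted p = 0.166). Fuca1, the alpha-fucosidase, was much tighter, at 1275 in the syngeneic group and 729 to 787 on the allogeneic arrays, with a change of -0.67 (adjusted p = 0.0950). Sgsh, a heparan sulfatase, had 343 in the syngeneic group and 122 to 249 on the allogeneic arrays (isotype change -0.67, adjusted p = 0.307). Manba, a beta-mannosidase, had 336 against 160 to 368 (isotype change -0.69, adjusted p = 0.290), so a day 0 array was above the syngeneic one. The sialidase Neu1 had 508 against 331 to 439, and the beta-galactosidase Glb1 606 against 448 to 511, with all allogeneic arrays below the syngeneic one but isotype changes of only -0.32 and -0.24 (adjusted p = 0.416 and 0.512). The beta-glucuronidase Gusb (644 against 530 to 789) and the alpha-galactosidase Gla (132 against 71.7 to 149) overlapped the syngeneic value, with isotype changes of -0.11 and -0.10 (adjusted p = 0.837 and 0.840). Gaa, described with the antibody groups, had an isotype change of -0.34 ± 0.64 (adjusted p = 0.803).

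Among the cysteine proteases 3 of 6 tested genes fell (median -1.17). Lgmn encodes legumain, which cuts after asparagine and activates other cathepsins. Its signals were 4680 in the syngeneic group, 1667 and 1504 in isotype, 2243 and 2019 at day 0, and 1559 and 1808 at day 3. Isotype was 2.90-fold lower (log2 -1.53 ± 0.21, adjusted p = 0.0126). Ctsb, cathepsin B, had 18265 in the syngeneic group, 6733 and 6916 in isotype, 7072 and 7416 at day 0, and 7086 and 7371 at day 3. The 6 allogeneic values of Ctsb were close together and the isotype change was -1.41 ± 0.19 (adjusted p = 0.0116).

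Ctsh, an aminopeptidase, fell from 1637 in the syngeneic group to 694 and 865 in isotype, with 715 and 649 at day 0 and 627 and 666 at day 3 (log2 -1.03 ± 0.22, adjusted p = 0.0444). Ctsl, cathepsin L, had 928 in the syngeneic group, 409 and 290 in isotype, 401 and 557 at day 0, and 415 and 547 at day 3. The arrays did not overlap, but the change of -1.31 ± 0.31 did not pass (adjusted p = 0.0595). Ctsc, which activates the serine proteases of cytotoxic granules, and Ctsz, a carboxypeptidase, did not pass either. Ctsc had 5458 in the syngeneic group, 4657 and 4458 in isotype, 4394 and 4343 at day 0, and 3972 and 4155 at day 3 (log2 -0.26 ± 0.19, adjusted p = 0.475). Ctsz had 2997 in the syngeneic group and 2334 to 3125 on the allogeneic arrays (isotype change -0.32, adjusted p = 0.470). The Lgmn call was lost without isotype array 2 (adjusted p = 0.0534), and the Ctsh call without any 1 of the 6 allogeneic arrays (0.0706 to 0.110).

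Of the 3 other peptidases, 1 fell. Tpp1, which removes tripeptides from protein ends, had 2454 in the syngeneic group, 994 and 1227 in isotype, 1128 and 1124 at day 0, and 998 and 1029 at day 3 (log2 -1.12 ± 0.21, adjusted p = 0.0320). That call was lost without any 1 of the 6 allogeneic arrays (0.0575 to 0.0856). Ctsd, the aspartic protease cathepsin D, had 7678 in the syngeneic group and 4423 and 4342 in isotype, 5276 and 4638 at day 0, and 4086 and 4459 at day 3. Its arrays also did not overlap, but the change of -0.80 ± 0.20 had an adjusted p of 0.0710. Ctsa, which protects Glb1 and Neu1 from degradation, had 2824 in the syngeneic group, 1649 and 1616 in isotype, 1483 and 1391 at day 0, and 1777 and 1328 at day 3 (log2 -0.77 ± 0.23, adjusted p = 0.116).

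Of 5 tested membrane proteins 1 fell (median -0.65). Scarb2, also called LIMP-2, carries glucocerebrosidase to the lysosome. It had 1582 in the syngeneic group, 581 and 522 in isotype, 603 and 528 at day 0, and 609 and 557 at day 3, a 2.72-fold fall (log2 -1.44 ± 0.20, adjusted p = 0.0133) that was lost without isotype array 2 (0.0573). Lamp1, a heavily glycosylated protein of the limiting membrane, had 5664 in the syngeneic group, 2417 and 2926 in isotype, 2495 and 3099 at day 0, and 2963 and 3353 at day 3. All 6 allogeneic arrays were below the syngeneic array, and the change of -1.08 ± 0.24 just missed the threshold (adjusted p = 0.0526). Its relative Lamp2 had 1625 in the syngeneic group and 1040 to 1486 on the allogeneic arrays (isotype change -0.24, adjusted p = 0.563). The membrane protein Cln3 had 659 in the syngeneic group, 478 and 335 in isotype, 447 and 431 at day 0, and 427 and 415 at day 3 (log2 -0.65, adjusted p = 0.176). The ion channel Mcoln1 also had all allogeneic arrays below the syngeneic one (isotype change -0.56 ± 0.21, adjusted p = 0.177).

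Of the 3 tested subunits of the proton pump 0 passed the test in limma (median -0.24). At an unadjusted limma p under 0.05 the count was 0 as well, against 20 of the 36 lysosomal genes and 23% of all tested probe sets. The syngeneic array was above all 6 allogeneic arrays for 0 of the 3, whereas this held for 27 of the 36 lysosomal genes and 26.4% of all tested probe sets. Atp6v0d1, a subunit of the membrane part of the pump, had 1596 in the syngeneic group, 1291 and 1215 in isotype, 1224 and 1621 at day 0, and 1284 and 1459 at day 3. Atp6ap1, an accessory subunit, had 1414 in the syngeneic group, 1058 and 1347 in isotype, 1225 and 1497 at day 0, and 1260 and 1132 at day 3. Atp6v1a, the catalytic subunit, had 1038 in the syngeneic group, 839 and 1370 in isotype, 1256 and 1010 at day 0, and 1263 and 1231 at day 3. In all 3 the allogeneic arrays lay on both sides of the syngeneic one, and the changes of -0.34, -0.24 and 0.05 had adjusted p of 0.459, 0.623 and 0.951. Whether the pump subunits differ from the hydrolases in their change was not tested.

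**Figure D3:**
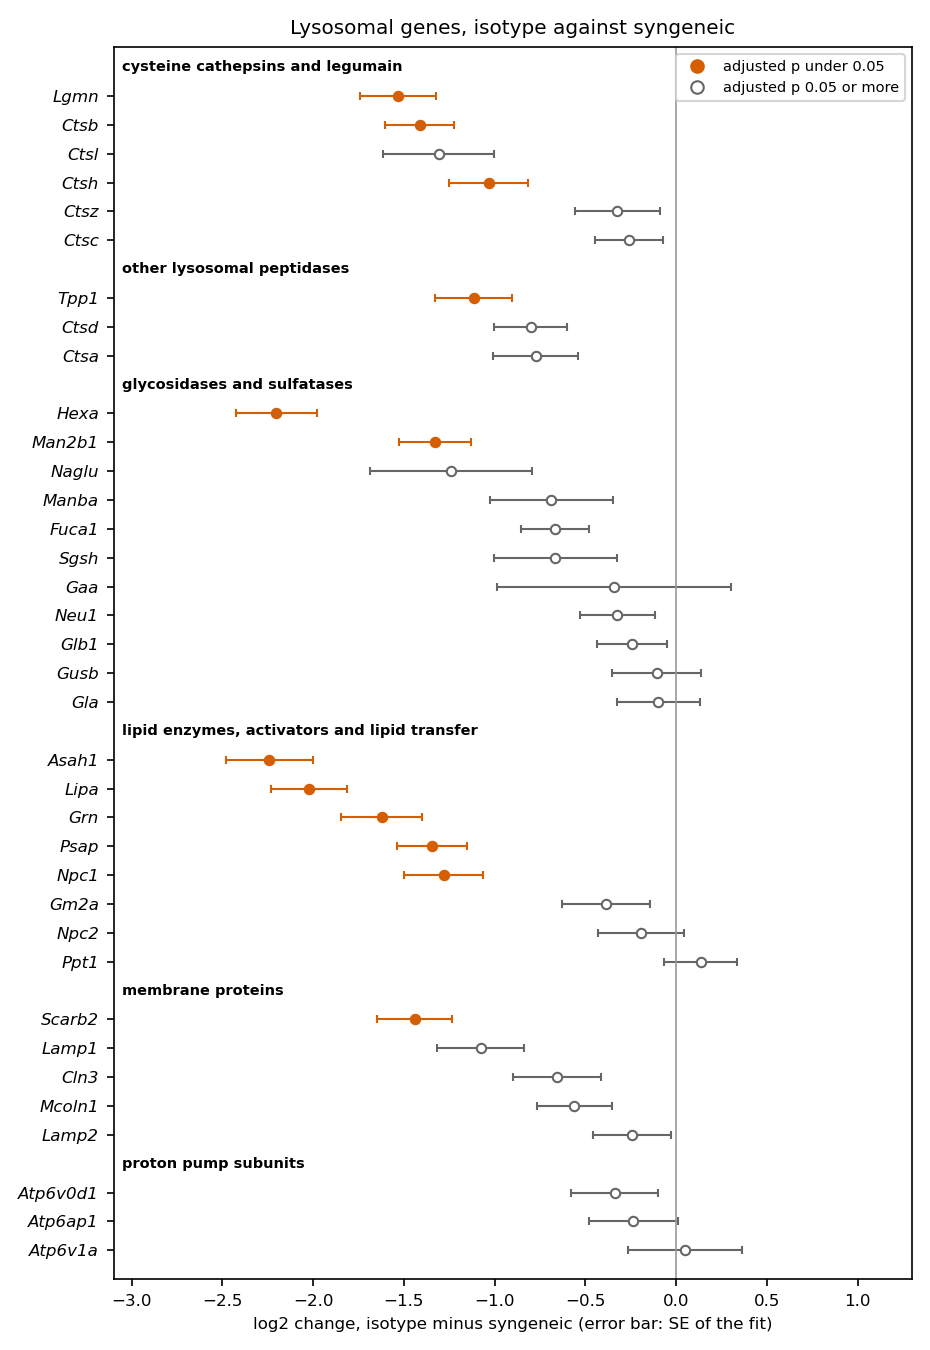
Log2 change, isotype minus syngeneic, of the 36 tested lysosomal genes by role, with the SE of the limma fit (filled, adjusted p under 0.05). The 12 filled points lie between -2.24 and -1.03, and the 3 pump subunits lie between -0.34 and 0.05.

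Sorted by promoter, the 7 genes with TCACGTGA had a median change of -0.56, from -0.80 to 0.05, and 0 of them fell. The 7 with a shorter match had a median of -1.08 and 1 fell (Lgmn). The 18 tested genes with a window and no CACGTG had a median of -0.53, from -2.20 to 0.14, and 7 fell. Asah1, Ctsb, Ctsh and Npc1 also fell, but they had no window and are in none of these groups. These are descriptions of small groups, and the difference between them was not tested.

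Other probe sets of the same genes give a check on each value. Further probe sets existed for 20 genes, 29 in all, of which 27 were tested. Of these, 26 were lower and 1 was higher in isotype than in the syngeneic group, and 9 passed, all as falls. For 4 genes a further probe set gave another call. A second Gaa probe set fell (542 against 179 and 180, log2 -1.37, adjusted p = 0.0131), whereas the one used here did not. The second Scarb2 and Tpp1 probe sets did not pass (-0.63, adjusted p = 0.163, and -1.20, adjusted p = 0.0996), nor did 1 of the others for Lipa (-1.43, adjusted p = 0.0564). The names of the probe sets used for Lipa, Grn, Atp6ap1 and Gaa mark probes that may also match other transcripts. The other Lipa probe sets changed by -1.43 and -1.54, less than the -2.02 of the one used. Those of Grn changed by -1.52 and -2.02, on either side of the -1.62 of the one used.

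Lysosomal genes beyond the 40 were counted from further lists. Of 20 tested further hydrolases 7 fell and 0 rose (median -0.92). Pla2g15, a lysosomal phospholipase, had 1384 in the syngeneic group against 269 and 259 in isotype (log2 -2.19, adjusted p = 0.00388), and Hgsnat, which acetylates heparan sulfate, had 646 against 152 and 102 (log2 -1.99, adjusted p = 0.00822). The other 5 were Acp2, Acp5, Ctss, Ctsf and Pld3. Ctsf (184 in the syngeneic group and 9.36 to 20.5 on the allogeneic arrays) was tested only through its syngeneic value and so could enter only by differing. Without 1 allogeneic array 3 to 6 of the list fell, and Pla2g15 and Hgsnat passed each time (adjusted p up to 0.0255 and 0.0316). Of 19 further membrane proteins and transporters 5 fell and 0 rose (median -0.49), among them Slc11a1, the metal transporter of phagosomes, with 2659 in the syngeneic group against 447 and 386 in isotype (log2 -2.54, adjusted p = 0.00332), and the peptide transporter Slc15a3, with 596 against 181 and 178 (log2 -1.49, adjusted p = 0.0128). On the 4 antibody arrays Pla2g15 had 272 to 383, Hgsnat 167 to 195, Slc11a1 564 to 715 and Slc15a3 160 to 240, each far below the syngeneic value. Without 1 array 1 to 3 of the membrane proteins fell. Slc11a1 passed each time (adjusted p up to 0.0226) and Slc15a3 4 of 6 times (up to 0.0535). Of 13 further pump subunits 0 passed in limma (median -0.33), with 2 at an unadjusted p under 0.05 (23% of all). The syngeneic array was above all 6 allogeneic arrays for 8 of these 13 (26.4% of all tested probe sets). Both isotype arrays were below it for 10 (38.8% of all). Atp6v0a1 had 529 in the syngeneic group against 239 and 93.0 in isotype (log2 -1.51, adjusted p = 0.0945). Atp6v1h had 599 against 368 and 222 (log2 -0.95, adjusted p = 0.159). On the 4 antibody arrays Atp6v0a1 had 178 to 315 and Atp6v1h 280 to 547.

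Genes of the machinery that sends hydrolases to the lysosome passed in both directions. Of 8 sorting genes 2 fell, the sorting receptor Sort1 (818 in the syngeneic group, 234 and 173 in isotype, 306 and 384 at day 0, and 233 and 353 at day 3; adjusted p = 0.0223) and the adaptor Gga2 (1290 in the syngeneic group, 586 and 518 in isotype, 432 and 407 at day 0, and 543 and 463 at day 3; log2 -1.16, adjusted p = 0.0275). In the same list Gnptab, the phosphotransferase that starts the mannose 6-phosphate tag, rose from 361 to 925 and 744, with 926 and 903 at day 0 and 917 and 1127 at day 3 (log2 1.10, adjusted p = 0.0449). The Gga2 and Gnptab calls were lost without any 1 of the 6 allogeneic arrays (adjusted p from 0.0545 to 0.0908 and from 0.0727 to 0.114), and the Sort1 call 4 of 6 times (up to 0.0806). Of 13 transcription factors and nutrient-sensing genes 0 passed in limma (median -0.13), with 4 at an unadjusted p under 0.05 (23% of all). Tfeb had 406 in the syngeneic group, 184 and 195 in isotype, 347 and 296 at day 0, and 279 and 339 at day 3, so all 4 antibody arrays lay between isotype and syngeneic (isotype change -0.93, adjusted p = 0.0586; day 0 minus isotype 0.63, adjusted p = 0.578; day 3 minus isotype 0.58, adjusted p = 0.403). Its relative Tfec had 321 in the syngeneic group, 82.9 and 37.3 in isotype, 112 and 97.6 at day 0, and 72.6 and 15.9 at day 3 (isotype change -1.78, adjusted p = 0.0598). Of 3 tested protease inhibitors 1 rose and 2 were lower in isotype without passing. Cst7, cystatin F, which inhibits cysteine cathepsins inside immune cells, rose from 854 to 1816 and 2298 (log2 1.21, adjusted p = 0.0321). It had 2381 and 2111 at day 0 and 2254 and 2065 at day 3. The Cst7 call was lost without any 1 of the 6 allogeneic arrays. Cst3 went the other way, from 4287 to 1472 and 2262 (log2 -1.21, adjusted p = 0.0816). It had 1758 and 1977 at day 0 and 2037 and 1509 at day 3.

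Markers of cell types also changed in this comparison, in both directions. Of 21 tested macrophage and monocyte markers 18 fell and 0 rose (median -2.45), and their summed signal was 14.8% of the syngeneic value on both isotype arrays. Cd163, 1 of the 18 (417 against 50.6 to 79.9 on the allogeneic arrays), was tested only through its syngeneic value. Neutrophil markers fell for 8 of 10 (summed signal 25.8% and 27.1%), erythroid markers for 6 of 9 (26.6% and 27.6%) and B cell markers for 1 of 8 (61.4% and 67.0%). Without 1 array the counts that fell were 15 to 18, 6 to 7, 4 to 6 and 0 to 1. T cell markers rose for 5 of 12 (150.7% and 168.0%, and 2 to 3 without 1 array). In limma 0 of 6 dendritic cell markers and 0 of 5 stromal markers passed (1 and 3 at an unadjusted p under 0.05). Of all tested probe sets 4.12% fell, 2.49% rose and 23% had an unadjusted limma p under 0.05. With so few dendritic cell and stromal markers, 0 passing does not show that they were unchanged. T cells, B cells and macrophages, the main cells of a splenocyte suspension, each had markers above the filter. The lowest marker signal on any array was 745 in the T cell list. It was 20.5 in the macrophage list, 17.5 in the B cell list and 4.85 in the stromal list, all under the filter level. Signals that low do not show whether a marker was detected. The summed signal of the 37 lysosomal genes was 51.0% and 52.0% of the syngeneic value in isotype. The part of the cell markers in the lysosomal change was not tested.

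**Figure D4:**
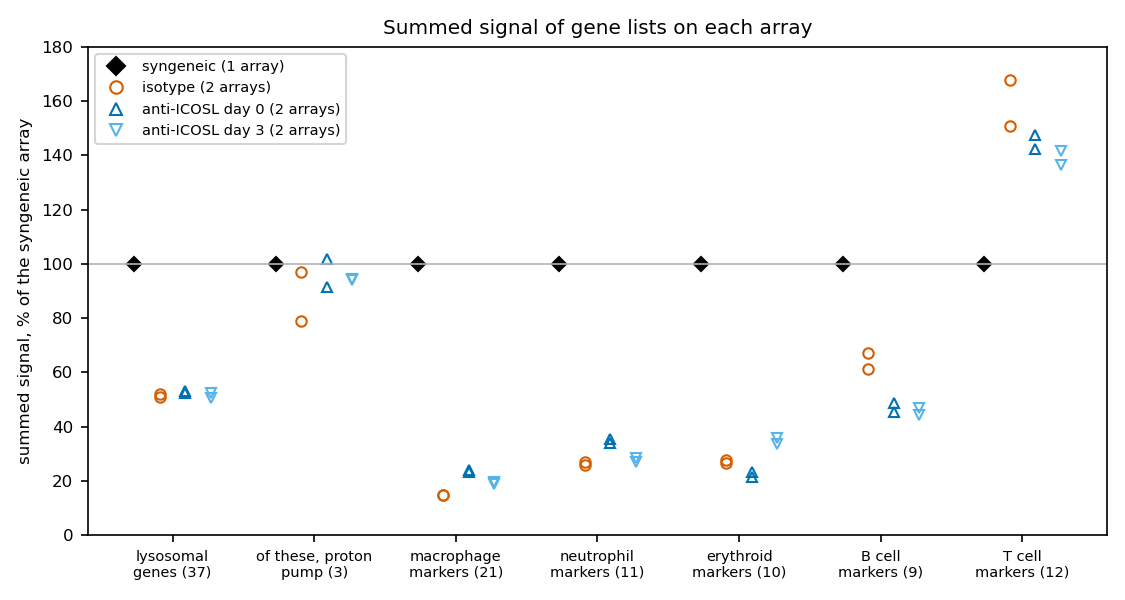
Summed signal of gene lists on each array, in percent of the syngeneic array (each point 1 array, lists along the horizontal axis, groups by colour and symbol). The lysosomal genes stay between 50.5% and 53.3% on all 6 allogeneic arrays, whereas the macrophage markers run from 14.8% to 24.0% and the 3 proton pump subunits from 78.8% to 101.9%. The 13 further pump subunits, not shown, ran from 80.6% to 88.1%. In such sums the brightest genes weigh most.

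Antibody against ICOSL given from day 0 asks whether early blockade alters the allogeneic spleen. The lysosomal genes did not differ detectably from isotype: 0 of 36 passed, as did 0% of all probe sets in the limma fit. At an unadjusted p under 0.05 there were 2 genes, against 7.18% of all probe sets. The median change was 0.06 (0.02 for all probe sets), with 23 genes higher and 13 lower (52.7% and 47.3% of all). Arrays did not overlap upwards for 7 genes and downwards for 8, against 19.4% and 16.2% of all probe sets. A change of at least 2-fold without overlap was shown by 0 genes, against 0.748% of all probe sets upwards and 0.514% downwards. The largest changes by size belonged to Gaa (0.76 ± 0.53, adjusted p = 0.819), Asah1 (0.52 ± 0.20, adjusted p = 0.680) and Naglu (0.50 ± 0.36, adjusted p = 0.829). On the second Gaa probe set the change had the opposite sign (-0.16 ± 0.16, adjusted p = 0.877). For Asah1 both day 0 arrays were above both isotype arrays and far below the syngeneic array. The summed lysosomal signal was 53.3% and 52.4% of the syngeneic value, against 51.0% and 52.0% in isotype, while that of macrophage markers was 24.0% and 23.4%, against 14.8% on each isotype array. Of the 21 macrophage markers 20 were higher than in isotype, 17 of them without overlap (median 0.65), and 0 passed (13 at an unadjusted p under 0.05).

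With antibody from day 3, which asks the same of late blockade, 0 of 36 genes and 0% of all probe sets passed. At an unadjusted p under 0.05 there was 1 gene, against 10.2% of all. The median change was 0.05 (0.03 for all probe sets), with 20 genes higher and 16 lower (54.3% and 45.7% of all). Arrays did not overlap upwards for 9 genes and downwards for 8 (24.3% and 18.8% of all). The gene with the largest change was Gaa, which encodes the acid alpha-glucosidase that breaks down glycogen. Its signal was 317 in the syngeneic group, 173 and 327 in isotype, 270 and 706 at day 0, and 692 and 1491 at day 3. Both day 3 arrays were above both isotype arrays, but the 2 arrays of a group were at least 2-fold apart on the log2(signal + 50) scale both at day 0 and at day 3. On that scale this held for 3.17% of all probe sets in each of these groups and for no other of the 36 genes, although on the signals alone Sgsh was as far apart at day 0 (249 and 122). The day 3 change was 1.88 ± 0.53, or 3.69-fold, with an adjusted p of 0.398. Gaa was the only one of the 36 genes at least 2-fold higher without overlap, a pattern found in 1.40% of all probe sets upwards and 0.423% downwards. The summed lysosomal signal was 50.5% and 52.2% of the syngeneic value and that of macrophage markers 19.7% and 18.7%, with 16 of the 21 markers higher than in isotype (median 0.45) and 0 passed (13 at an unadjusted p under 0.05).

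The probe set behind these Gaa values belongs to a class whose name marks probes that may also match other transcripts. On the second Gaa probe set the signals were 179 and 180 in isotype, 166 and 145 at day 0, and 290 and 301 at day 3. The pairs were close together there, the day 3 arrays were the highest of the allogeneic arrays, unlike on the probe set used here, where a day 0 array (706) was above a day 3 array (692), and the day 3 change of 0.59 did not pass (adjusted p = 0.398). On this probe set all 6 allogeneic arrays were below the syngeneic value of 542. The next largest changes at day 3 were those of Ctsl (0.42 ± 0.25, adjusted p = 0.603) and Asah1 (0.41 ± 0.20, adjusted p = 0.533).

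**Figure D5:**
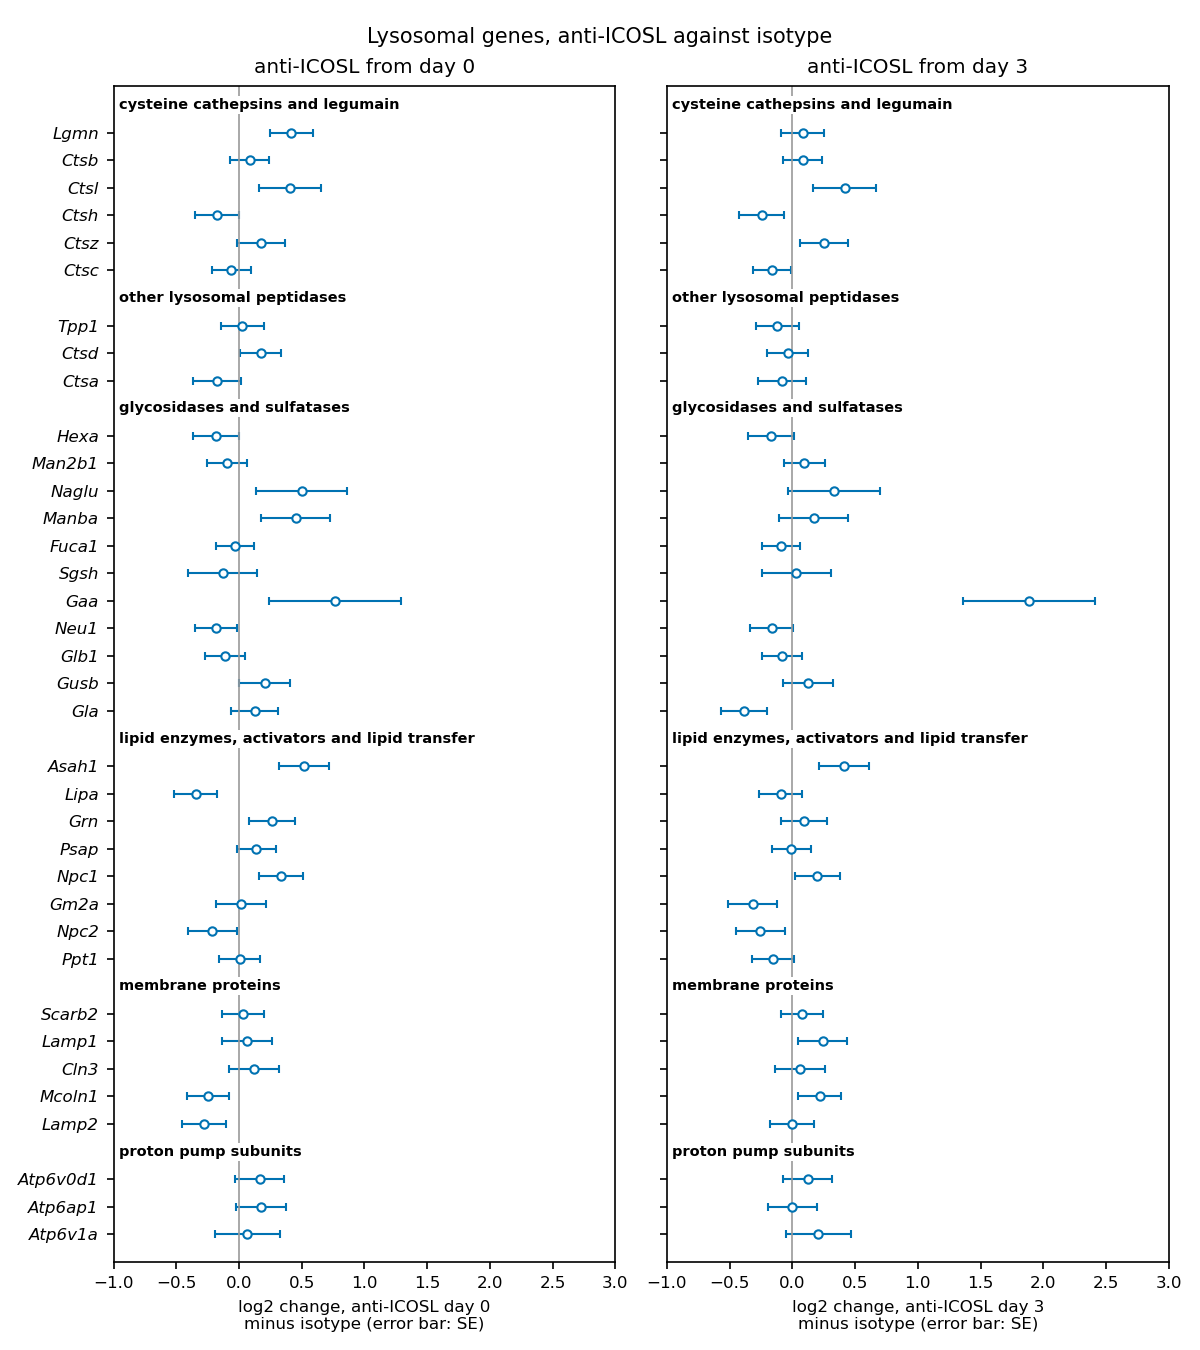
Log2 change of the lysosomal genes against isotype for antibody from day 0 and from day 3, with the SE of the limma fit. Both series lie around 0, with Gaa at 0.76 and 1.88 the largest change in each, and no adjusted p is under 0.05.

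The direct comparison of the schedules, day 0 minus day 3, asks whether the start of treatment matters. Again 0 of 36 genes passed, as did 0% of all probe sets, and 2 genes had an unadjusted p under 0.05, against 6.79% of all. The median change was 0.05 (-0.01 for all probe sets), with 21 genes higher and 15 lower at day 0 (47.8% and 52.2% of all). The 2 genes were Gla and Mcoln1. Gla, which removes galactose from globotriaosylceramide, had 122 and 149 at day 0 and 88.5 and 71.7 at day 3, with 132 in the syngeneic group and 105 and 136 in isotype, a difference of 0.51 ± 0.19 (adjusted p = 0.712). Mcoln1, the calcium channel TRPML1 of the lysosomal membrane, had 213 and 215 at day 0 and 341 and 289 at day 3, with 412 in the syngeneic group and 285 and 243 in isotype. Its difference was -0.47 ± 0.17 (adjusted p = 0.712), and the day 0 arrays lay below and the day 3 arrays above both isotype arrays. A second Mcoln1 probe set did not show this: it had 255 and 138 in isotype, 269 and 228 at day 0, and 310 and 151 at day 3, with a difference of 0.15 ± 0.35 (adjusted p = 0.953). Gaa differed by -1.12 ± 0.53 (adjusted p = 0.752). On the second Gaa probe set the difference was -0.75 ± 0.16 (limma unadjusted p = 0.00257, adjusted p = 0.555). Arrays did not overlap, with day 0 higher, for 10 genes and with day 0 lower for 4 (18.6% and 20.4% of all). By at least 2-fold this held for 0 genes, against 0.442% of all probe sets upwards and 0.716% downwards.

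With both schedules pooled against isotype, 0 of 36 genes and 0% of all probe sets passed, and 2 genes had an unadjusted p under 0.05, against 9.35% of all. These were Gaa (1.32 ± 0.46, adjusted p = 0.459) and Asah1 (0.47 ± 0.17, adjusted p = 0.490), followed in size by Naglu (0.42 ± 0.32, adjusted p = 0.741). On the second Gaa probe set the change was smaller (0.22 ± 0.14, adjusted p = 0.678). The median change was 0.06 (0.02 for all probe sets), with 19 genes higher and 17 lower (53.7% and 46.3% of all). The 3 comparisons with isotype use the same isotype arrays. The smallest adjusted p of any lysosomal gene in the 4 antibody comparisons was 0.398, and a p that misses the threshold does not show that the groups were alike. On the arrays themselves, the 12 genes that fell in isotype also lay below the syngeneic array on all 4 arrays with antibody. Those genes were picked against the same single syngeneic array, so this is a description and not a separate test.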

How the data were processed

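Spleen cell RNA (10 µg per array) was measured on 7 Affymetrix arrays. Per the submitters' processing notes, the deposited intensity values are MAS5 signals, 1 per probe set on a linear scale; the MAS5 version is not given in the sources used here. Of 22690 probe sets 64 are controls and were left out. Per the platform annotation 20380 of the rest have 1 gene symbol, 691 several and 1555 none. Gene IDs of 20351 matched the reference table and 0 symbols needed an update.

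From these values log2(signal + 50) was fitted with limma 3.58.1 in R 4.3.3, over all 7 arrays, which left 3 residual degrees of freedom (prior degrees of freedom, 3.36). The lone syngeneic array is assumed to vary like the others. The 5 comparisons were isotype minus syngeneic, each anti-ICOSL group minus isotype, day 0 minus day 3, and both anti-ICOSL groups together minus isotype. P-values are two-sided and adjusted over the 15372 tested probe sets. No array pair held identical values, and precision is limited by how few arrays there are. The procedure was tested on simulated data.

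Values on every array are printed for the 10 genes with the largest change among those that passed in isotype minus syngeneic, the 3 largest of each role, and the 3 largest in each other comparison. Up to 2 genes of each further list, plus Gnptab, are also printed. For the further hydrolases, membrane proteins and pump subunits the antibody arrays are given as ranges. Ctsc, Fuca1, Npc2, Ctsh and the further probe sets were added after their values were seen. The genes, lists and tests were chosen with earlier results of these data known. Alternatives were pseudocounts of 16 and 100, other filters, quantile normalization, median centring, the sample number as a block, limma with trend and robust options, a fit to the compared groups alone, the mean of all probe sets of a gene, and leaving out each of the 6 allogeneic arrays (the syngeneic group has no second array).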

Additional observations from a re-analysis of the deposited data

Results flagged for a closer look

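For Mcoln1 the 2 antibody schedules lay on opposite sides of isotype on the probe set used here. Both day 0 arrays (213 and 215) lay below both isotype arrays (285 and 243), and both day 3 arrays (341 and 289) lay above them. The log2 change against isotype was -0.25 at day 0 (adjusted p = 0.819) and 0.22 at day 3 (adjusted p = 0.693), a difference of -0.47 ± 0.17 that did not pass (limma adjusted p = 0.712). Of all tested probe sets, 399 (2.60%) had day 0 and day 3 arrays on opposite sides of both isotype arrays, and 1 of 36 lysosomal genes is near that share. A second Mcoln1 probe set gave 0.32 and 0.17 against isotype, with a difference of 0.15 ± 0.35 (adjusted p = 0.953).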

How the results depend on the processing

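In isotype minus syngeneic, 1017 probe sets passed, against 1616 with a filter at the 60th percentile, 542 with no filter, 1786 with limma's trend and robust options, 568 with the compared groups alone, and 410 to 692 without 1 array. Of the lysosomal genes 12 fell, against 7 with the compared groups alone, 5 to 10 without 1 array (7 when isotype array 1 was left out and 5 when isotype array 2 was) and 5 to 16 over all alternatives. The median of these genes stayed between -0.77 and -0.59. Asah1, Lipa, Hexa and Ctsb passed in all 16 alternatives run for them (highest adjusted p 0.0275, 0.0300, 0.0258 and 0.0494), Tpp1 in 7 of 16, Ctsh in 4 of 16 and Npc1 in 6 of 15. An added alternative, chosen after seeing the data, set the mean of the 3 allogeneic groups against the syngeneic array and called 15 lysosomal genes lower. With the sample number as a replicate block, 640 probe sets and 10 lysosomal genes passed. The label of the syngeneic array gives no sample number, and that fit counted it as sample 1. Deviations of same-numbered arrays from their group means had correlations of -0.012, 0.075 and 0.044 over probe sets. Such values give no sign of pairing but cannot exclude it, and the labels do not say what the numbers mean. Atp6v1a changed sign with the block (-0.0097) and without isotype array 2 (0.38 without isotype array 1 and -0.29 without array 2), and so did Naglu in both anti-ICOSL groups minus isotype (0.89 and -0.0545). The cause of these shifts was not tested.

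In day 0 minus isotype, day 3 minus isotype, day 0 minus day 3, and both minus isotype, 0 probe sets passed. The counts were 3, 2, 6 and 1 with a pseudocount of 100, 13, 8, 7 and 6 with a filter at the 60th percentile, and 21, 5, 12 and 21 with trend and robust options. The count of lysosomal genes was 0 under all alternatives run. Single syngeneic and paired allogeneic arrays of combined RNA limit all of these values, and probe sets near the filter carry the least signal over background.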
